A study of Mus musculus with 4 samples.

Results

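The glypicans and syndecans are the main families of cell-surface heparan sulfate proteoglycans, and their RNA levels were compared between mouse embryonic stem cells that were wild type or mutant in Chd2. The members were chosen by gene symbol, Gpc1 to Gpc6 and Sdc1 to Sdc4, and all 10 were among the 23309 genes listed. The choice of these families was made with the FPKM values and q-values of both genotypes already known, so their levels and differences are given as a description. The wild-type cells and the Chd2 mut/mut cells, in which Chd2, the gene of a chromatin remodeler, is mutated on both alleles, were of the 129/Ola strain at passages 10 to 20. They were grown on gelatin with serum and leukemia inhibitory factor. Each genotype had 2 total RNA libraries, labelled lot 1 and lot 2. The labels do not say whether lots were separate cultures, how many clones the mutant represents, or how the lines are related, so the spread behind the authors' test may be technical. Per gene and genotype 1 FPKM value was analysed (fragments sequenced, per length of transcript and per size of library), so no value below has a replicate error of its own.

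A proteoglycan is a core protein that carries long sulfated sugar chains. Glypicans are held in the outer leaflet of the membrane by a glycosylphosphatidylinositol (GPI) anchor, while syndecans span the membrane and have a short cytoplasmic tail that binds PDZ-domain proteins and the cytoskeleton. Their heparan sulfate chains bind growth factors and morphogens, including FGF, WNT, BMP and Hedgehog proteins, and act as co-receptors or as reservoirs. In mouse embryonic stem cells heparan sulfate is known to be needed for FGF signalling and for exit from self-renewal.

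Chd2 itself measured 10.2 FPKM in wild-type cells and 5.69 FPKM in mutant cells, 55.9% of the wild-type level, so a reduced transcript was still detected in the mutant. The summed FPKM was 806390 and 809413 in wild type and mutant. The pluripotency markers Pou5f1 (1032 and 1071 FPKM) and Sox2 (178 and 222 FPKM) were abundant in both genotypes. Of the 9 markers in that list, 7 were higher in the mutant and 2 were lower. None of the 9 was called in the authors' deposited table, where the lowest q-value was 0.293, that of Nanog. The largest difference was that of Nanog, at 114 and 150 FPKM, while Utf1 was lower in the mutant, at 694 and 615 FPKM. The 12 markers of primitive and visceral endoderm summed to 3.08 and 2.31 FPKM, with Ttr at 0 in both genotypes. The fibroblast list summed to 17.1 and 14.8 FPKM, most of it Thy1, with Col3a1, Postn and Lum at 0, and the trophoblast list to 15.5 and 15.0 FPKM, most of it Tfap2c and the remainder led by Ascl2 and Eomes. The neural list summed to 58.7 and 57.3 FPKM, most of it Tubb3 (50.7 and 49.1 FPKM), with Olig2 listed at 0 in both genotypes. In these bulk samples, fewer cells of a type and less RNA per cell cannot be told apart. The 10766 genes with a mean over the genotypes of 1 FPKM or more are termed expressed below. Their median difference was -0.0012 on the log2(FPKM + 1) scale, with positive values higher in the mutant. Of these genes, 49.6% lay above 0.

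Both families were led by a few genes. FPKM is scaled for transcript length, so levels of different genes can be set side by side. In wild type the order from high to low was Sdc4, Sdc1, Gpc1, Gpc4, Gpc3, Gpc2, Sdc3, Sdc2, Gpc5 and Gpc6, and the mutant had the same order. Of the 10 members, 6 were expressed by that rule and 4 were not. Neighbours in the order cannot be compared with a spread between libraries. The closest among the expressed members were Gpc4 and Gpc3 in the mutant, at 3.78 and 3.75 FPKM.

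**Figure D1:**
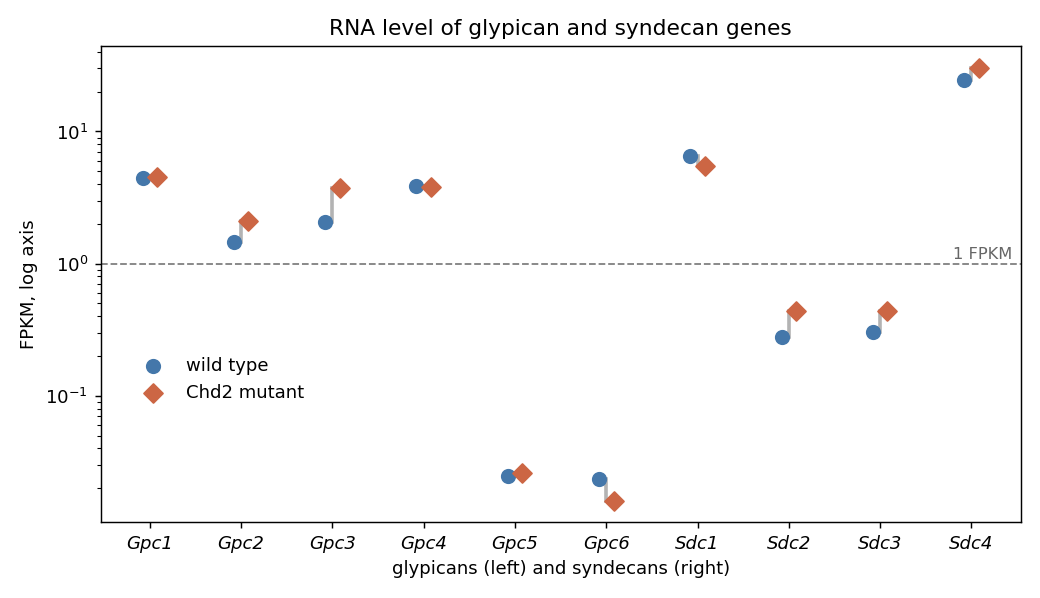
FPKM (log axis) of each glypican and syndecan gene in wild type (circles) and Chd2 mutant (diamonds), 1 value per genotype and so without error bars. The widest gap between genotypes among members above the dashed line at 1 FPKM is that of Gpc3, at 2.05 and 3.75 FPKM, while Gpc5 and Gpc6 lie below 0.03 FPKM.

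Gpc3 was the 1 member that differed between the genotypes by the authors' call. Gpc3, a glypican known to bind Hedgehog ligands and to restrain growth of the embryo, measured 2.05 FPKM in wild-type cells and 3.75 FPKM in mutant cells. Its level was thus low in wild type and rose 1.83-fold. In the authors' deposited table its log2 fold change was 0.87 and its q-value was 0.0434, against a threshold of 0.05. Of the 81 genes called in that table, 78 had a q-value no higher than that of Gpc3 and 3 had a higher one. A q-value of at most 0.02 would not call it. The call is 1 of the 6 members with a q-value under 1. Over all 11276 genes whose q-value was under 1, 0.718% were called in either direction and 0.257% were called higher. Among the 1510 genes with a mean from 2 to 4 FPKM, the range that holds Gpc3, 0.464% were called higher. From transcript length and the smallest steps in the table, the Gpc3 values correspond on a rough scale to about 113 fragments in wild-type and 216 in mutant cells.

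Gpc4 lies next to Gpc3 on the X chromosome and showed almost no difference. Gpc4 belongs to another glypican subgroup, with Gpc1, Gpc2 and Gpc6, and is known to take part in WNT and FGF signalling. It measured 3.86 FPKM in wild-type cells and 3.78 FPKM in mutant cells, with a q-value of 0.998 in the authors' deposited table. The level of Gpc3 was 0.530 times that of Gpc4 in wild type and 0.993 times in the mutant. The glypican that stood well below its neighbour in wild-type cells thus stood beside it in mutant cells.

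Of the other expressed glypicans, Gpc1 had even levels and Gpc2 had a ratio above 1 that was not called. Gpc1, a broadly expressed glypican and a co-receptor of FGF2, measured 4.41 FPKM in wild-type cells and 4.54 FPKM in mutant cells (q = 0.998 in the authors' deposited table). Gpc2, also called cerebroglycan and best known from developing neurons, was at 1.47 and 2.09 FPKM, a ratio of 1.43 (q = 0.682 in the authors' deposited table). The neural marker Pax6 was at 1.68 and 2.42 FPKM (q = 0.508 in the authors' deposited table), and its part in the Gpc2 difference was not tested. The Gpc2 values correspond to about 95 and 142 fragments. Gpc2 overlaps Stag3, which encodes a meiotic cohesin subunit, in the RefSeq annotation, but not in GENCODE M21. In GENCODE M21 a protein-coding model on the same strand, Gm43720, for which no value was analysed, covers 99.3% of the Gpc2 span. Stag3 fell 1.82-fold from 3.15 to 1.73 FPKM (q = 0.0103 in the authors' deposited table), and the genes thus lay on opposite sides of 0. No strand is stated for the libraries or the table, so reads of any stretch shared with either gene cannot be assigned with certainty.

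Gpc5 and Gpc6, the pair of large glypican genes that lie side by side on chromosome 14, were close to 0 in both genotypes. Gpc5 measured 0.0247 FPKM in wild-type cells and 0.0262 FPKM in mutant cells, and Gpc6 0.0236 and 0.0161 FPKM. These values correspond to about 2 fragments each for Gpc5, and to about 2 and 1 for Gpc6, so no difference was detectable at this depth. Their genes span 1433 and 1051 kb, against 342 kb for Gpc3, 112 kb for Gpc4 and 6.35 kb for Gpc2.

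Sdc4 was the most abundant member. Sdc4, the syndecan of focal adhesions, which binds protein kinase C alpha through its tail, measured 24.4 FPKM in wild-type cells and 30.4 FPKM in mutant cells. The ratio of 1.25 was not called (q = 0.572 in the authors' deposited table). This is the lowest q-value among the members that were not called. Sdc4 stood at percentile 71.2 of the expressed genes by mean level, and Gpc3 at percentile 18.8.

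Sdc1, the epithelial syndecan, had the higher value in wild-type cells. It measured 6.53 FPKM in wild-type cells and 5.47 FPKM in mutant cells, a ratio of 0.838 (q = 0.884 in the authors' deposited table). Sdc4 was 3.74 times as abundant as Sdc1 in wild-type cells and 5.57 times as abundant in mutant cells.

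Sdc2, the syndecan of mesenchymal cells, and Sdc3, the syndecan of neural tissue, were below 1 FPKM. Sdc2 was at 0.278 and 0.438 FPKM in wild type and mutant, and Sdc3 at 0.306 and 0.440 FPKM. Both were listed higher in the mutant, with ratios of 1.57 and 1.44 and q-values of 1 in the authors' deposited table. The values correspond to about 25 and 41 fragments for Sdc2 and about 39 and 59 for Sdc3.

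Across the 6 expressed members, 4 lay above 0 and 2 below on the log2(FPKM + 1) scale, with a median difference of 0.17. For comparison, 49.6% of all expressed genes lay above 0. Gpc2, Gpc3 and Sdc4 were at least 1.2-fold higher in the mutant, a size chosen after the values were seen. None of the 6 was at least 1.2-fold lower, but Sdc1, at 1.19-fold lower, fell just short of that size. Over all expressed genes, 9.74% were at least 1.2-fold higher and 8.43% at least 1.2-fold lower, without a test. Ratios at least as large as that of Gpc3 were found in 0.743% of expressed genes, as large as that of Gpc2 in 2.37%, and as large as that of Sdc4 in 7.06%. In the other direction, ratios no higher than that of Sdc1 were found in 8.85%.

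**Figure D2:**
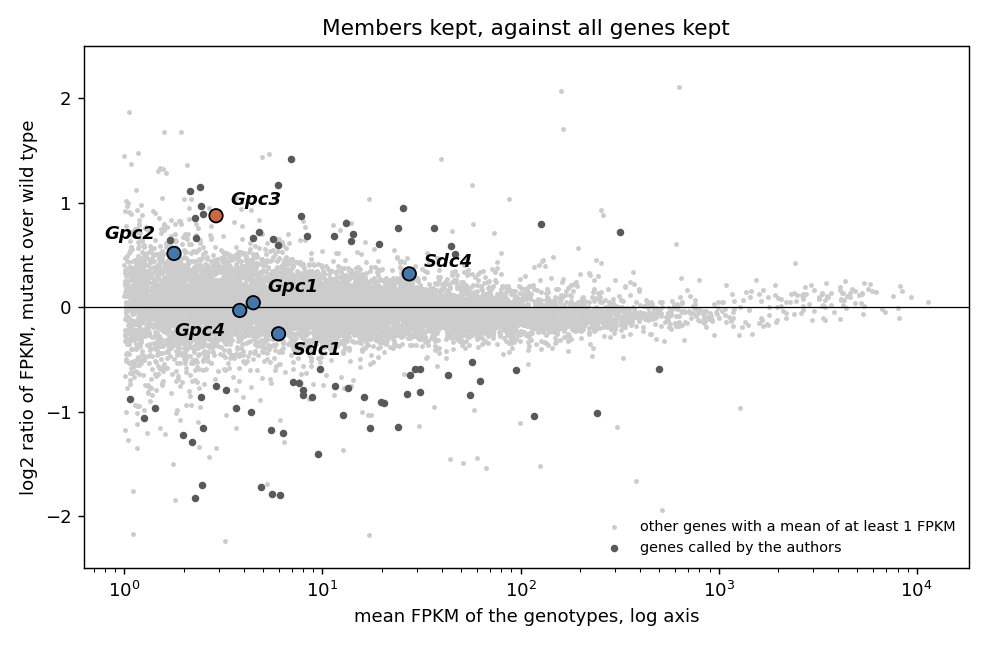
Log2 ratio of FPKM, mutant over wild type, against the mean FPKM (log axis) for all expressed genes (grey), genes called in the authors' table (dark) and the 6 expressed members (outlined, Gpc3 in orange). Gpc3 lies at 0.87 among called genes, Gpc2 at 0.51 and Sdc4 at 0.32 lie within the grey cloud, and 60 genes beyond 2.5 in either direction or at 0 in 1 genotype are not drawn.

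Both families had the larger sum in the mutant, and in each family 1 gene made most of the difference. The glypicans summed to 11.8 FPKM in wild-type cells and 14.2 FPKM in mutant cells, a difference of 2.37 FPKM. Without Gpc3 the difference was 0.667 FPKM, a ratio of 1.07. The syndecans summed to 31.5 and 36.8 FPKM, a ratio of 1.17. Without Sdc4 the syndecan ratio was 0.892, so the direction of that sum rests on Sdc4. None of these sums has a replicate error or a test.

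The make-up of the pool followed the same genes. Sdc4 made up 56.3% of the summed FPKM of all 10 members in wild type and 59.7% in the mutant. Within the glypicans, Gpc3 made up 17.3% in wild-type cells and 26.4% in mutant cells. Gpc1 went from 37.3% to 31.9% of the glypican sum at nearly the same level. The glypicans together stood at 37.5% of the syndecan sum in wild type and 38.6% in the mutant.

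**Figure D3:**
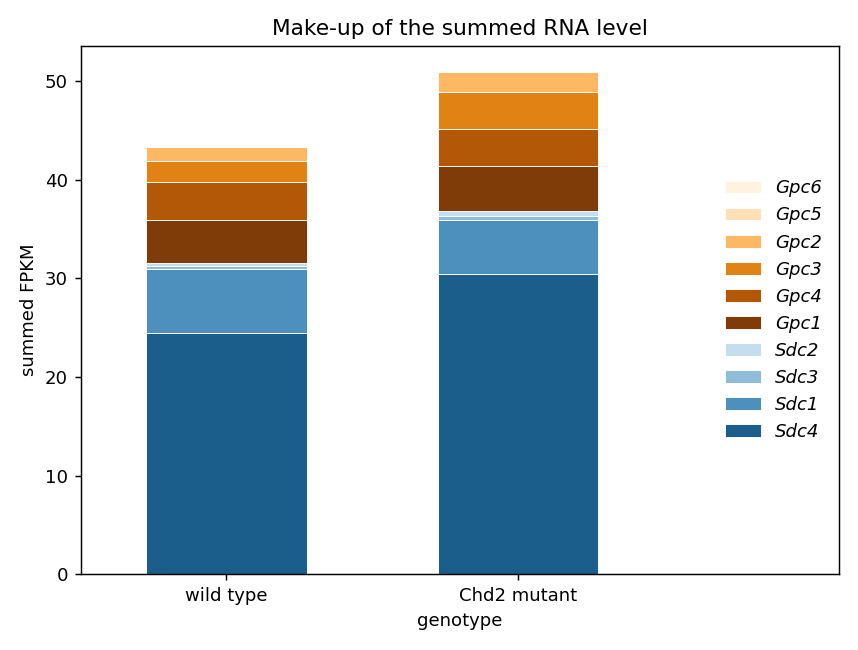
Summed FPKM of the 10 members in each genotype, stacked by gene, with syndecans in blue and glypicans in brown to orange. The stack reaches 43.4 FPKM in wild-type cells and 51.0 FPKM in mutant cells, Sdc4 fills more than any other gene in both, and the Gpc3 segment is wider in the mutant.

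The upstream sequences of Gpc3 and Gpc4 are shown because the genes are neighbours, 1 called and 1 with even levels. Those of Sdc1 and Sdc4 are shown because they are the abundant syndecans. RefSeq promoter sequences of the build GRCm38.p6 matched 7 of the 10 members, Gpc2, Gpc3, Gpc4, Gpc5, Sdc1, Sdc3 and Sdc4. The 250 bases before the annotated start are given 5′ to 3′ on the strand of the gene. They lie at chrX:52613975-52614224 (minus strand) for Gpc3, chrX:52164924-52165173 (minus strand) for Gpc4, chr12:8771146-8771395 (plus strand) for Sdc1 and chr2:164443189-164443438 (minus strand) for Sdc4. Capitals mark the GC box core GGGCGG on either strand and TATAA on the strand of the gene.
Gpc3: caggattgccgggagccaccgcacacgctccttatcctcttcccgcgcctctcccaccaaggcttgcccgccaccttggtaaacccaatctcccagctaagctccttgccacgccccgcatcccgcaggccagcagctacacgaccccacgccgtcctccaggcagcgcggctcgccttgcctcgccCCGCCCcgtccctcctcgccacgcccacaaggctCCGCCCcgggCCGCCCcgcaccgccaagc
Gpc4: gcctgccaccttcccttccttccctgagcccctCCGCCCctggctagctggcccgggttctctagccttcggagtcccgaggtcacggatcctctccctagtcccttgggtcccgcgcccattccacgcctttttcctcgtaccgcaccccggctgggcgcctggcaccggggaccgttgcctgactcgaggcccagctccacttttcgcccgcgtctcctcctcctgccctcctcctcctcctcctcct
Sdc1: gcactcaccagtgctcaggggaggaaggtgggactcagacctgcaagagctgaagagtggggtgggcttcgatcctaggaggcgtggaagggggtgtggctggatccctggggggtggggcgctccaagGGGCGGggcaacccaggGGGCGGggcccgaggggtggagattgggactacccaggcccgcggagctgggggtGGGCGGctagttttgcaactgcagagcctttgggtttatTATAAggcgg
Sdc4: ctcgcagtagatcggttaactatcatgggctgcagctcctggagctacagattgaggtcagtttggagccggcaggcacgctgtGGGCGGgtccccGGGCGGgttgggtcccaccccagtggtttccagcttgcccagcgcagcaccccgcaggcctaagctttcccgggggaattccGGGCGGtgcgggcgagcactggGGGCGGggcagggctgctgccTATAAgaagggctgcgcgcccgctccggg

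Each of these windows held more CpG than the median window and at least 1 GC box, and TATAA was found in both syndecan windows shown. Gpc3 held 25 CpG dinucleotides and Gpc4 held 18, against a median of 6 over the 32851 windows of that length in the table. Sdc1 held 10 and Sdc4 held 19. GGGCGG, searched on both strands, occurred 3 times in Gpc3, 1 time in Gpc4, 3 times in Sdc1 and 4 times in Sdc4, and at least once in 32.7% of all windows. TATAA occurred on the strand of the gene 29 bases before the start in Sdc4 and 10 bases before it in Sdc1. On the strand of the gene with its first base 40 to 21 bases before the start, where the Sdc4 match lies, TATAA was in 3.51% of all windows. Searched on both strands and at any position it was in 22.8% of all windows, and it was in neither Gpc3 nor Gpc4. Of the windows not shown, those of Sdc3 and Gpc2 also lacked it, while Gpc5 held 1 match, on the other strand. TATAA thus did not separate syndecans from glypicans. CpG number did not follow RNA level among members. Sdc3, at under 1 FPKM, had 32, the most of the 7, and Gpc5, near 0 FPKM, had 12. These are matches of letters in a window, and binding of any factor was not analysed here.

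The surroundings of Gpc3 on the X chromosome included another called gene. Hprt, the purine salvage enzyme gene, named here after its values were seen, lies 374 kb from Gpc3 in GRCm38.p6, with 108 kb between Gpc3 and Gpc4. It fell 18.9-fold and measured 5.68 FPKM in wild-type cells and 0.301 FPKM in mutant cells (q = 0.0256 in the authors' deposited table). The protein-coding genes between them that were expressed, Ccdc160 and Phf6, were not called. Ccdc160 measured 3.30 FPKM in wild-type cells and 4.71 FPKM in mutant cells, and Phf6, a nucleolar chromatin-associated protein gene, 5.83 and 7.18 FPKM. On the X chromosome 4 genes were called higher, Gpc3 among them, or 1.11% of its 359 genes with a q-value below 1. Over all genes with a q-value below 1 that share was 0.257%. The count is small and has Gpc3 itself in it, and whether the chromosome differs from the rest was not tested. The short Mir363, at place 4 from Gpc3 in the order of annotated genes, was listed at 49.8 FPKM in wild-type cells and at 0 in mutant cells. Its q-value was 1 in the authors' deposited table, and FPKM is unstable for such short transcripts. Mir19b-1, near Gpc5 on chromosome 14, was likewise listed at 23.7 FPKM in wild-type cells and at 0 in mutant cells. Whether the difference at Hprt between the lines bears on Gpc3 was not tested. Around all 10 members, 41 neighbouring genes other than members had a value. Of these, 12 were expressed, Mir363 and Mir19b-1 among them, and Stag3 next to Gpc2 was the 1 called.

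**Figure D4:**
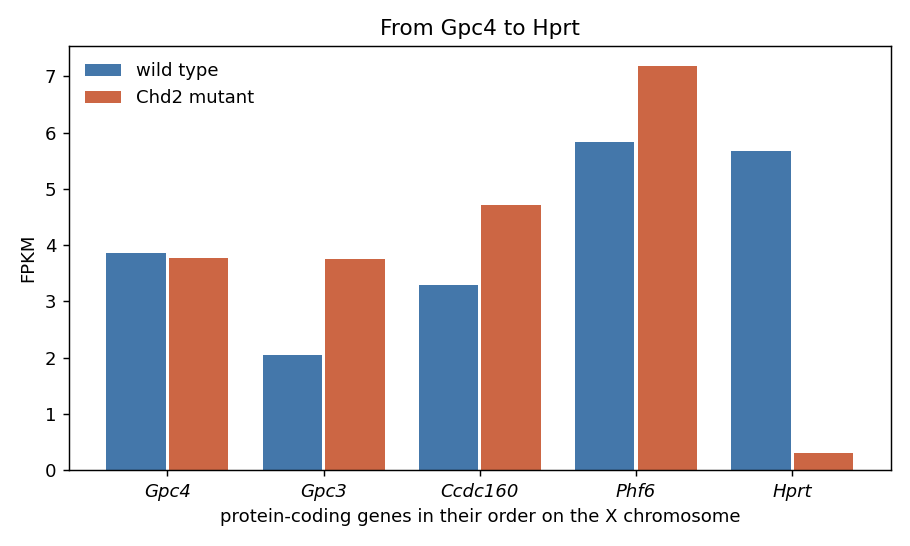
FPKM of the protein-coding genes with a value from Gpc4 to Hprt, in their order on the X chromosome, in wild type (blue) and Chd2 mutant (orange), 1 value per genotype. Gpc4 is even at 3.86 and 3.78 FPKM, Gpc3, Ccdc160 and Phf6 have the taller bar in the mutant, and Hprt drops from 5.68 to 0.301 FPKM.

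The genes that build, modify or handle the chains held no call. Of 13 lists of genes around the core proteins, 123 genes were listed and 70 were expressed. None of the 123 was called in the authors' deposited table, where their lowest q-value was 0.409. Over all genes with a q-value under 1, 0.718% were called, a base that leaves out some of the 123. A share that low leaves few calls to be found among this many genes, so their lack cannot be read as a trait of these lists. Of the 70, 45 lay above 0 and 25 below, beside 49.6% of all expressed genes above 0, with a median difference of 0.04 on the log2(FPKM + 1) scale. With quantile normalization of the values, 41 of the 70 lay above 0 and 29 below. The share of all expressed genes above 0 was not computed with that normalization, so these counts have no background beside them.

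Chain synthesis begins with a linkage sugar stub on the core protein. The linkage list had 5 expressed genes, 4 above 0 and 1 below, with a median of 0.01 that was -0.02 with quantile normalization. B3galt6, the galactosyltransferase that adds the second galactose, measured 2.03 FPKM in wild-type cells and 2.79 FPKM in mutant cells. The xylosyltransferase gene Xylt2 was at 5.87 and 5.88 FPKM. The copolymerase genes Ext1 and Ext2, which elongate the chain, were at 15.9 and 15.5 FPKM and at 8.13 and 8.47 FPKM.

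The sulfotransferases and the epimerase had 4 of 16 genes expressed, 2 above 0 and 2 below, with a median of -0.01 that was 0.0021 without a filter, 0.0054 at a mean of 5 FPKM or more and -0.03 with quantile normalization. Ndst1, which starts sulfation of the chain, measured 2.22 FPKM in wild-type cells and 1.96 FPKM in mutant cells. Hs2st1 and Hs6st1, which add 2-O and 6-O sulfate, were at 8.03 and 8.06 FPKM and at 17.6 and 17.7 FPKM. The supply of the sulfate donor had 6 expressed genes, 3 on each side, with a median of -0.01 that was 0.0012 with quantile normalization. Sulf1 and Sulf2, extracellular enzymes that remove 6-O sulfate, were at 7.45 and 8.18 FPKM and at 25.8 and 30.4 FPKM. Chain degradation had 4 expressed genes, 3 above 0, with a median of 0.06, and the heparanase gene Hpse was near 0, at 0.0844 and 0.0239 FPKM.

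Among other carriers of heparan sulfate, 3 of 4 expressed genes lay above 0, with a median of 0.22. Over all 10 genes of that list, without a filter on level, the median was 0.0093. The 3 are proteoglycans of basement membranes. Col18a1 measured 57.0 FPKM in wild-type cells and 72.4 FPKM in mutant cells, Agrn 19.1 and 22.4 FPKM, and Hspg2, which encodes perlecan, 10.5 and 12.3 FPKM. Spock2 lay below 0, at 1.97 and 1.43 FPKM. Col18a1, Agrn and Hspg2 each stood above Gpc1, the leading glypican, in both genotypes.

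Genes that handle the core proteins were mostly expressed, with no call. All 8 genes of GPI anchor transfer were expressed, 5 above 0 and 3 below, with a median of 0.10. Pgap1, which remodels the anchor, measured 1.07 FPKM in wild-type cells and 1.45 FPKM in mutant cells. Of 11 genes of shedding and cleavage 6 were expressed, 4 above 0 and 2 below, with a median of 0.07 that was 0 without a filter on level. Notum, first known for cleaving glypicans and now as a WNT deacylase, was at 38.5 and 43.7 FPKM. Furin, a convertase that cleaves glypican core proteins, was at 1.29 and 1.74 FPKM. The sheddase genes Adam10 and Adam17 were at 5.68 and 5.64 FPKM and at 10.8 and 11.3 FPKM. Of 11 syndecan tail partners 10 were expressed, not Prkca (0.278 and 0.186 FPKM), and of the 10, 8 lay above 0 and 2 below, with a median of 0.08. The adaptor Gipc1 was at 60.03 and 67.4 FPKM and the Rac activator Tiam1 at 4.601 and 5.41 FPKM.

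Signalling genes that depend on these proteoglycans held no call. Of 7 expressed Hedgehog pathway genes, 4 lay above 0 and 3 below, with a median of 0.01 that was -0.02 with quantile normalization. The target gene Gli1 measured 19.1 FPKM in wild-type cells and 19.6 FPKM in mutant cells, and Ptch1, a receptor and target, 14.1 and 13.6 FPKM. The ligand gene Shh was listed at 0 in both genotypes. Of 4 expressed FGF system genes, 2 lay on each side. Fgf4, the FGF ligand of these cells, was at 41.1 and 47.1 FPKM and its receptor gene Fgfr1 at 9.06 and 8.66 FPKM. Enzymes of the chondroitin sulfate branch, which compete for the same linkage stub, had 3 of 7 expressed genes above 0 and a median of -0.03. That median was -0.0059 without a filter, -0.05 with quantile normalization and -0.18 for genes at a mean of 5 FPKM or more.

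**Figure D5:**
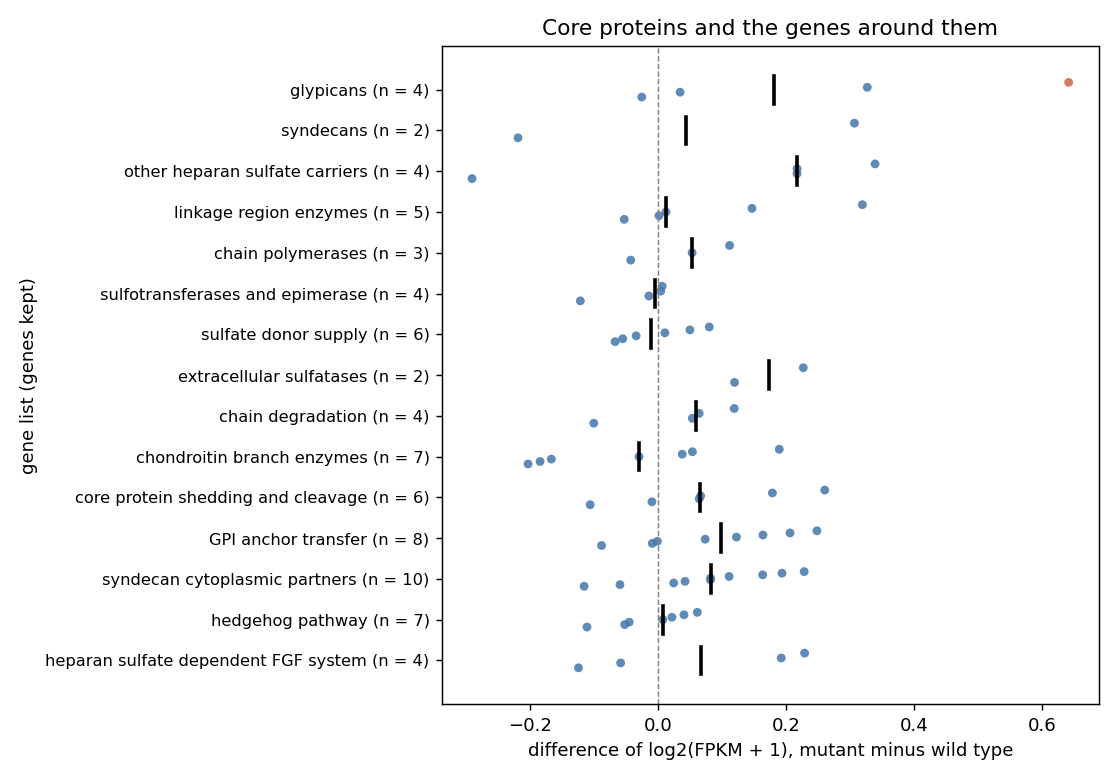
Difference of log2(FPKM + 1) between mutant and wild type for the expressed genes of both families and 13 lists around them, with the median of each list as a bar and the called gene in orange. Gpc3 at 0.64 lies farthest from 0, and the list medians other than the members' lie between -0.03 and 0.22.

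The genes nearest to Gpc3 in both values, by Euclidean distance over log2(FPKM + 1) in the 2 genotypes, were Gsn, Zfp251 and Lrig3, at distances of 0.09, 0.13 and 0.13. Gsn, which encodes the actin-severing protein gelsolin, measured 2.02 FPKM in wild-type cells and 3.45 FPKM in mutant cells. None of the 3 was called, with q-values of 0.0748, 0.115 and 0.0863 in the authors' deposited table. Gpc4 had closer neighbours, such as Irf2bp2 at 3.87 and 3.78 FPKM. Likeness over 2 values describes level and ratio only.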

How the data were processed

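Total RNA from 4 libraries, 2 per genotype, was sequenced. The submitters' processing notes name TopHat2 2.1.0, Cufflinks and bcl2fastq 2.17.1.14 and the build mm9. For the Cufflinks version, annotation and test, the sources used here give nothing. The authors deposited 1 FPKM value per gene and genotype. A log2 fold change is given per the file headers, which for the members equals the plain ratio without a pseudocount, beside a q-value, also deposited by the authors, with a call at 0.05. With 1 value per genotype the planned limma fit was not run.

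Differences were computed as log2(FPKM + 1), mutant minus wild type, which understates changes of low genes. "Expressed" means a mean of at least 1 FPKM. Folds are plain ratios. Library depth is not stated. For low genes with 1 annotated transcript over 1500 bases, FPKM times length in kb (less 150 bases) piled up near 0.0374 in wild type and 0.0359 in the mutant. That step was taken as 1 fragment for rough fragment numbers, with the longest GENCODE M21 transcript.

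The members and lists were chosen with earlier results of these data known. Named genes are the members, Chd2, called list genes, the 4 largest differences and 4 highest levels of each list, 5 annotated neighbours on each side of a member, and the 3 genes nearest in both values. Hprt, Ccdc160, Phf6, and Hpse, Shh, Ttr, Col3a1, Postn, Lum, Olig2 and Prkca for their low levels, and Gm43720 for its overlap, were chosen after their values were seen. Neighbours and promoters came from RefSeq GRCm38.p6 and gene spans from GENCODE M21, another build than the authors used. Python 3.11.15, pandas 2.3.3 and numpy 2.4.6 were used, and the calculations were tested on simulated data.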

Additional observations from a re-analysis of the deposited data

How the results depend on the processing

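The number of members called was 1. It stayed 1 for genes at a mean of 1 FPKM or more and became 0 at 5 FPKM or more, 0 with an absolute log2 ratio of at least 1, and 0 with a q-value of at most 0.02, a setting chosen after seeing the data. These settings take subsets of the authors' calls by construction. The syndecan sum, at a ratio of 1.17, was 0.892 without Sdc4. Under pseudocounts of 0.1 or none, quantile normalization and centring of the median, none of the 40 alternative values of the member differences changed sign, and 13 moved by over 1.5 times. The difference of Gpc3 ranged from 0.62 with quantile normalization to 0.87 without a pseudocount. Of 68 alternative list medians, 9 had the other sign, 1 was exactly 0, and 29 in all moved by over 1.5 times or past 0. Only quantile normalization and centring could have changed the sign of a single gene. No paired analysis was possible because the table holds 1 value per genotype and not the lots, and for the same reason no library could be left out.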
